A study of Mus musculus with 18 samples.

Results

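The cell division cycle was followed through 35 genes that encode cyclins, cyclin-dependent kinases (CDKs), CDK inhibitors, replication factors and mitotic proteins, and through the cell cycle phase that the authors deposited for every cell. The genes were taken as a list of names, and all 35 were found among the 20275 genes of the deposited count table. They were examined in 56201 cells of bone marrow (BM) from C57B6/J mice from 4 stages, namely embryonic days 16.5 and 18.5 (E16.5, E18.5), postnatal day 0 (P0) and an adult stage whose age the labels do not state. Hematopoietic progenitors (HPs) had been sorted as CD45+Lineage-Kit+ cells and stromal cells as CD45-Ter119- cells, and no group carried a transgene or a treatment. By the study's methods, HPs were released by crushing bones in cold buffer, whereas stromal cells also went through a warm collagenase digestion. Compartment and handling therefore cannot be told apart where HPs are compared with stroma. HPs at E16.5 were represented by 2 libraries, numbered 1 and 2 in the labels, and every other stage and compartment by 1, which makes 9 libraries of pooled mice. The study examined the hematopoietic and stromal compartments of fetal, newborn and adult BM, and here the question is how far their cells differed in cycling.

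Cells enter the cycle when D cyclins, bound to CDK4 or CDK6, release E2F transcription factors from the retinoblastoma proteins. E2F factors then raise cyclin E and the genes of replication, among them the MCM helicase that is loaded at origins, and later the B cyclins with CDK1 drive mitosis until the anaphase promoting complex ends it. CDK inhibitors of the Cip/Kip and INK4 families hold cells in G1 or outside the cycle. In BM, progenitors are known to divide actively while most hematopoietic stem cells of adults rest, and fetal stem cells are known to divide more than those of adults.

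The libraries held between 560 and 14084 cells and between 13974733 and 194892476 UMIs, with a median of 6747 UMIs per cell in adult HPs and between 11810 and 23292 in the others. Levels are given as CPM, a gene's UMIs scaled to a common library total after the cells of a group had been summed, and each gene is compared only with itself across groups. In such sums, fewer cells of a type and less RNA per cell cannot be told apart. Where values for several libraries are listed, HPs are in the order library 1 and library 2 of E16.5, E18.5, P0, adult, and stroma in the order of stage. Counting error on whole-library levels was small: the least sampled of them, Cdkn2c in HP library 1 of E16.5, rested on 189 UMIs and had a 95% Poisson interval of 11.7 to 15.6 CPM. Cells of 1 library are not replicates, and intervals on levels (exact Poisson) and shares (exact Clopper-Pearson) cover counting error only. Some HP libraries shared many cell barcodes. Adult HPs shared 375 barcodes with E18.5 HPs, 330 with library 1 of E16.5 and 225 with P0 HPs, whereas stromal libraries shared between 12 and 38 with each other and library 2 of E16.5 between 1 and 8 with the other HP libraries. The shallower cell of each shared barcode in the adult HP library (694 cells) had a median of 549 UMIs against 43153 in its deeper partner, and 79.4% of these shallow cells were called S or G2/M. Each test below was repeated without such cells.

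Cluster codes were compared with marker lists. Of 140 deposited clusters, 13 that were shallow and had none of their own markers among their leading genes were left out of the account by cell class, as were the deeper clusters of undefined code (62 cells of E16.5 and 75 of P0 stroma). The 13 held 27.1% of E18.5 HPs, 17.5% of adult HPs and 19.2% of P0 stroma. Some codes went against their leading genes: T cell markers scored highest in E16.5 HSPC1, the top genes of P0 HSPC4 included the granulocyte genes Prtn3, Mpo and Elane, those of adult Mast4ii included 3 macrophage markers, and those of E18.5 DC2 were osteoclast genes with 0 dendritic cell markers. The codes HSPC, Mono, Mast, EC, F, C and DC each held at least 1 such cluster. They are compared between stages by cluster, and values pooled over such a code, in the plots or between the E16.5 libraries, only describe the code. Clusters coded P were led by muscle or by pericyte markers and are named so here. All 4 pan-hematopoietic markers were higher in HPs, and all 5 fibroblast and 5 chondrocyte markers were higher in stroma. Ptprc, among the 4, encodes CD45, on which the cells had been sorted, so it is no independent check of the label. Adult HPs also held a cluster coded Stroma, with 56 cells.

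HPs were mostly called S or G2/M, and stromal cells mostly G1. A cell is called G1 where neither its S score nor its G2/M score is above 0, so G1 includes cells outside the cycle. Cells called S or G2/M made up 54.6% (50.4 to 58.8%), 74.9% (73.7 to 76.1%), 72.6% (71.1 to 74.1%), 84.8% (83.9 to 85.7%) and 79.6% (78.5 to 80.6%) of the 5 HP libraries. In the 4 stromal libraries they made up 21.1% (20.2 to 22.0%), 18.9% (17.9 to 19.8%), 14.6% (14.0 to 15.2%) and 3.14% (2.73 to 3.61%). Every HP library lay above every stromal library, and the shares in stroma were lower at each later stage. T cell clusters held 2141 cells of E16.5 library 2 and 18 of library 1, and without them the E16.5 libraries stood at 54.4% and 58.2%.

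Deposited calls differed with depth. In adult HPs the median was 2614.5 UMIs for G1 cells against 9996 for S and 7784.5 for G2/M cells, and in adult stroma it was 11562 against 33894 and 33221. Phases were therefore scored again after cells had been thinned to 1000 UMIs, which left out the cells below that number. They made up 27.5% of E18.5 HPs, 17.0% of adult HPs, 10.4% of P0 stroma and 0.389 to 4.14% of the other libraries, so the thinned shares describe the remaining cells. Scored without thinning, 94.1% of cells received the deposited phase. After thinning, cells in S or G2/M made up 64.0%, 82.7%, 75.2%, 89.2% and 85.5% of the HP libraries, and 39.6%, 37.4%, 33.1% and 17.6% of the stromal ones. The HP minus stroma difference was 33.8, 37.8, 56.2 and 67.8 percentage points from E16.5 to the adult, or 48.9 ± 16.0 (SD, n = 4 stages). HPs were higher at 4 of 4 stages, and the exact paired permutation test over stages gave the smallest 2-sided p that 4 pairs allow, which is above 0.05. Library 1 alone put the E16.5 difference at 24.4 points and library 2 alone at 43.1.

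**Figure D1:**
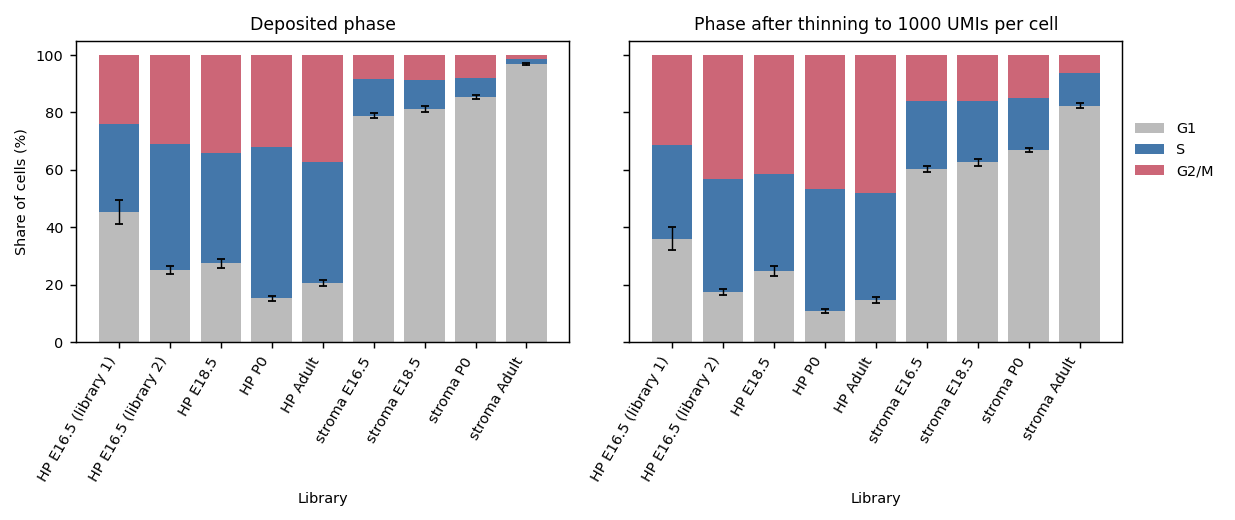
Stacked bars give the share of cells (%) called G1, S or G2/M in each of the 9 libraries, as deposited (left) and after thinning to 1000 UMIs per cell (right), and error bars show the 95% Clopper-Pearson interval of the G1 share. G1 takes 96.9% of adult stroma and 20.4% of adult HPs in the deposited calls, and thinning moves the stromal shares of S and G2/M up without bringing any stromal library to the level of an HP library.

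The transcripts behind those calls differed in the same direction. Between compartments, 26 of the 35 genes were higher and 3 lower in HPs in edgeR's quasi-likelihood test over 9 libraries with stage as a term (adjusted p under 0.05 over 18407 genes). The background was high, since 25.8% of all genes tested were called higher and 32% lower, 57.8% in all. The median log2 fold change was 1.97 over the 35 genes and -0.05 over all genes. By stage, the median of the genes' log2 ratios of HP to stroma was 1.36, 1.56, 2.15 and 2.52 in the order of stage. Of the 35, 20 belong to the lists from which phase is scored (19 higher, 0 lower) and 15 do not (7 higher, 3 lower).

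**Figure D2:**
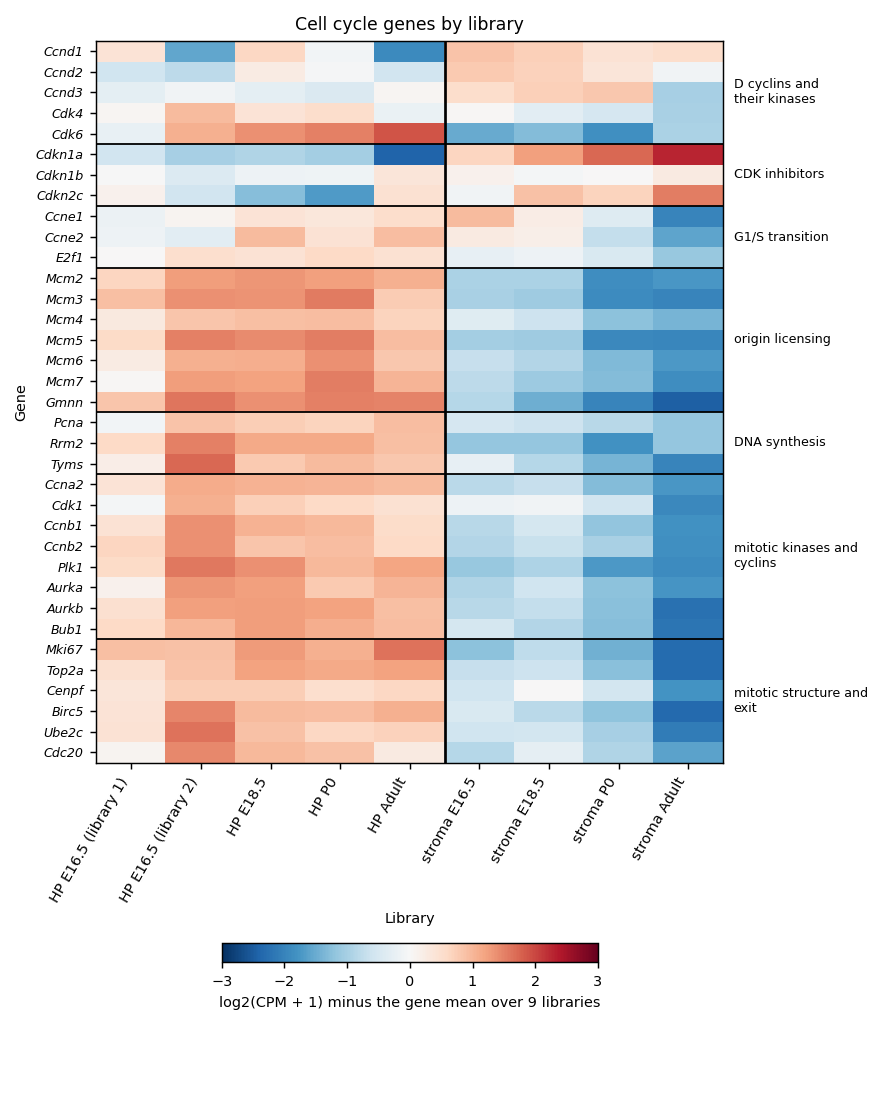
Colours give log2(CPM + 1) of each of the 35 genes minus its mean over the 9 libraries, with genes grouped by role and HP libraries to the left of the vertical line. Genes of licensing, DNA synthesis and mitosis are higher in HPs than in stroma and most are lowest in adult stroma (Rrm2 is lowest at P0), while Cdkn1a, Ccnd1, Ccnd2 and Cdkn2c break from that pattern.

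Origin licensing genes were higher in HPs without exception (7 of 7). Mcm5, a subunit of the MCM helicase, stood at 70.4, 135.3, 126.6, 138.6 and 89.9 CPM in HPs, against 22.7, 21.7, 11.5 and 11.3 CPM in stroma. The compartments did not overlap, and the log2 fold change was 2.72 (SE 0.34, edgeR adjusted p = 0.00075). Gmnn, whose product geminin blocks a second round of licensing, had the highest log2 fold change of the 35 genes (3.01, SE 0.42, edgeR adjusted p = 0.0011). Its levels ran from 106.6 to 182.8 CPM in HPs and from 10.1 to 32.5 CPM in stroma. Mcm2, Mcm3, Mcm6 and Mcm7 changed by 2.51, 2.62, 2.06 and 2.30 on the log2 scale, and Mcm4 by 1.59.

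Genes of DNA synthesis followed (3 of 3). Rrm2, the inducible subunit of ribonucleotide reductase, was at 76.9, 145.1, 112.2, 111.2 and 94.8 CPM in HPs and at 22.0, 21.8, 13.5 and 21.8 CPM in stroma, with a log2 fold change of 2.41. Tyms, thymidylate synthase, reached 222.2 CPM in library 2 of E16.5 HPs against 76.6 in library 1, the widest gap of this group between the E16.5 libraries. Pcna, the sliding clamp of DNA polymerases, differed least of the 3 genes (log2 fold change 1.41, SE 0.32, edgeR adjusted p = 0.0086).

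Mitotic genes were higher in HPs as well, with 8 of 8 kinases and cyclins and 6 of 6 genes of mitotic structure and exit. Plk1, a kinase of mitotic entry and spindle assembly, was at 27.6, 56.4, 48.6, 36.8 and 42.4 CPM in HPs, while stroma held 7.6, 9.0, 4.8 and 4.2 CPM (log2 fold change 2.71, SE 0.34). Mki67, the Ki-67 protein that coats mitotic chromosomes, was at 209.6, 204.7, 270.9, 232.9 and 344.2 CPM in HPs and at 46.9, 65.3, 40.4 and 21.8 CPM in stroma. The compartments did not overlap, and the highest and lowest values were those of the adult HP and adult stromal libraries. The log2 fold change of Mki67 was 2.55 (SE 0.40, edgeR adjusted p = 0.0018). Those of Top2a, Birc5, Ube2c and Cdc20 were 2.13, 2.08, 1.86 and 1.68. Cdk1, the kinase bound by A and B cyclins, had the smallest difference of the group, with 73.3 to 161.7 CPM in HPs and 69.6, 70.8, 51.3 and 19.4 CPM in stroma (log2 fold change 1.19, SE 0.41, edgeR adjusted p = 0.042). The calls of Cdk1 and of E2f1 (0.90, SE 0.29) rested on single libraries: the first was lost on leaving out any library but HP library 1 of E16.5, and also with RLE size factors (1.10, edgeR adjusted p = 0.052), and the second on leaving out any library but that one and E16.5 stroma. Without a library the adjusted p reached 0.10 for both (edgeR).

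Promoter sequences were looked at because the mitotic and the licensing genes each moved together. In background knowledge, genes of late cycle phases tend to carry a cell cycle homology region (CHR, searched as TTTGAA or TTCGAA) near CCAAT boxes (CCAAT), whereas early genes carry E2F sites, searched here as TTTCCCGC, TTTGGCGC, TTTCGCGC, TTCCCGCC or TTGGCGCC, words that can overlap each other. Windows of 300 bases, 250 before and 50 after the RefSeq start on GRCm38.p6, were found for 28 of the 35 genes, and both strands were searched. CHR words were present in 5 of 6 windows of mitotic kinases and cyclins and in 5 of 6 of mitotic structure and exit, against 19.4% of 27025 promoters, and CCAAT boxes in 6 of 6 and 5 of 6, against 37.8%. E2F words were present in 3 of 5 licensing windows (Mcm3, Mcm5 and Mcm6) and 2 of 6 of mitotic kinases and cyclins, against 4.17% of all promoters. They were present in 0 of 2 windows of the G1/S transition and 0 of 3 of DNA synthesis, and CCAAT boxes were also in 5 of 5 licensing windows. None of the 3 windows of D cyclins and their kinases (Ccnd3, Cdk4, Cdk6) held any of these words. A match is a description of letters and not of a bound site, and a window without one says nothing of the factor.

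Below are the 150 bases upstream of the start of 3 mitotic genes, in which capitals mark CHR and CCAAT matches on either strand, and of Mcm6, in which capitals mark E2F matches and its 2 CCAAT matches are left in lower case. The first capital run of Mcm6 is formed by 2 overlapping matches on opposite strands.
Cdk1, chr10:69352913-69353062, minus strand: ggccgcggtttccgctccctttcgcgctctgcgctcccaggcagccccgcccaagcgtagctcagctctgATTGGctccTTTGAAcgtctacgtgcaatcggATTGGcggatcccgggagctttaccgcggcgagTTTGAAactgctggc
Ube2c, chr2:164769779-164769928, plus strand: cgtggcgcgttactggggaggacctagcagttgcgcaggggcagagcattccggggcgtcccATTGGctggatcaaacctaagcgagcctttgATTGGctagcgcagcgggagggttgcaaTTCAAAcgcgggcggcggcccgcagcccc
Cdc20, chr4:118437344-118437493, minus strand: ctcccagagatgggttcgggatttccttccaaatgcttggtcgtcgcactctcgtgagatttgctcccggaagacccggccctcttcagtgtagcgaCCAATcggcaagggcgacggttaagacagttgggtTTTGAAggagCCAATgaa
Mcm6, chr1:128359706-128359855, minus strand: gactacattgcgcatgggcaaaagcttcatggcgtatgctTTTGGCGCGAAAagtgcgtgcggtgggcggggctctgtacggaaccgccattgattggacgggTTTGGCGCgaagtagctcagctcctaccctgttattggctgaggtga
The Cdk1 run also holds an E2F match, left in lower case.

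Of the G1/S transition genes 1 of 3 was called higher in HPs, namely E2f1, a transcription factor of S phase genes. Ccne1 and Ccne2, which encode cyclin E, did not pass (0.33 and 0.77 on the log2 scale, edgeR adjusted p = 0.66 and 0.25), and Ccne2 passed when E16.5 stroma was left out (1.52, edgeR adjusted p = 0.034). Cdk6 was the only gene of the D cyclins and their kinases to be called higher in HPs, at 66.3, 163.1, 203.9, 223.8 and 290.9 CPM, against 26.5, 30.9, 21.0 and 39.9 CPM in stroma (log2 fold change 2.67, SE 0.37, edgeR adjusted p = 0.0011). Ccnd2 was higher in stroma, at 304.8, 287.6, 229.5 and 164.7 CPM against 101.6 to 209.7 CPM in HPs (log2 fold change -0.83, SE 0.24, edgeR adjusted p = 0.023), but the adult stromal level lay within the HP range. The calls of Ccnd2 and Cdkn2c were lost without library 2 of E16.5 or without either compartment's E18.5 or P0 library, and that of Ccnd2 also without E16.5 stroma. Ccnd1, Ccnd3 and Cdk4 did not pass, with log2 fold changes of -1.14, -0.59 and 0.70 and adjusted p of 0.074, 0.27 and 0.051 (edgeR). Ccnd1 and Cdk4 passed with DESeq2 (adjusted p = 0.032 and 0.0497) and in edgeR without library 1 of E16.5 (-1.44 and 0.84, adjusted p = 0.040 and 0.0081), so that 2 kinases were then higher in HPs. Ccnd3 passed without the adult libraries (-1.09, edgeR adjusted p = 0.0060), in which it was at 142.7 CPM in HPs and 67.9 in stroma, against 100.5 to 127.8 and 198.2 to 242.1 CPM in the perinatal libraries.

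CDK inhibitors were higher in stroma or level. Cdkn1a, which encodes p21 and is a target of p53, was at 107.6, 162.4, 226.5 and 335.4 CPM in stroma, and at 45.8, 33.5, 36.0, 33.1 and 12.2 CPM in HPs. The stromal level was higher at each later stage, the HP level was lowest in the adult, and the compartments did not overlap. The log2 fold change of HP over stroma was -2.76 (SE 0.50, edgeR adjusted p = 0.0034). The call held under every alternative tried, none of which separated compartment from handling. Cdkn2c, an INK4 inhibitor of CDK4 and CDK6, was at 11.4, 23.2, 19.9 and 37.3 CPM in stroma and between 3.1 and 17.1 CPM in HPs (log2 fold change -1.57, SE 0.51, edgeR adjusted p = 0.034). Its level in E16.5 stroma lay within the HP range. Cdkn1b, which encodes p27, did not pass (-0.19, SE 0.18, edgeR adjusted p = 0.38), with 29.3 to 50.1 CPM in HPs and 37.5 to 47.2 CPM in stroma.

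Other genes of the pathway, from lists outside the 35, are given by role. All 12 other replication genes were called higher in HPs (Gins1 2.85, Pole 2.40 on the log2 scale), as were 13 of 15 other mitotic genes (Ccnf 3.23, Mybl2 2.88) and 6 of 10 other G1 regulators (Rbl1 2.19, E2f2 2.09). Over all 18407 genes tested, 25.8% were called higher in HPs and 32% lower. Of 4 other CDK inhibitors, 3 were called lower in HPs, namely Cdkn1c (-8.05), Cdkn2b (-3.94) and Cdkn2a (-3.13). Of 9 quiescence-associated genes, 5 were called lower in HPs and 0 higher, with Gas1 at -11.14 and Btg2 at -3.44.

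**Figure D3:**
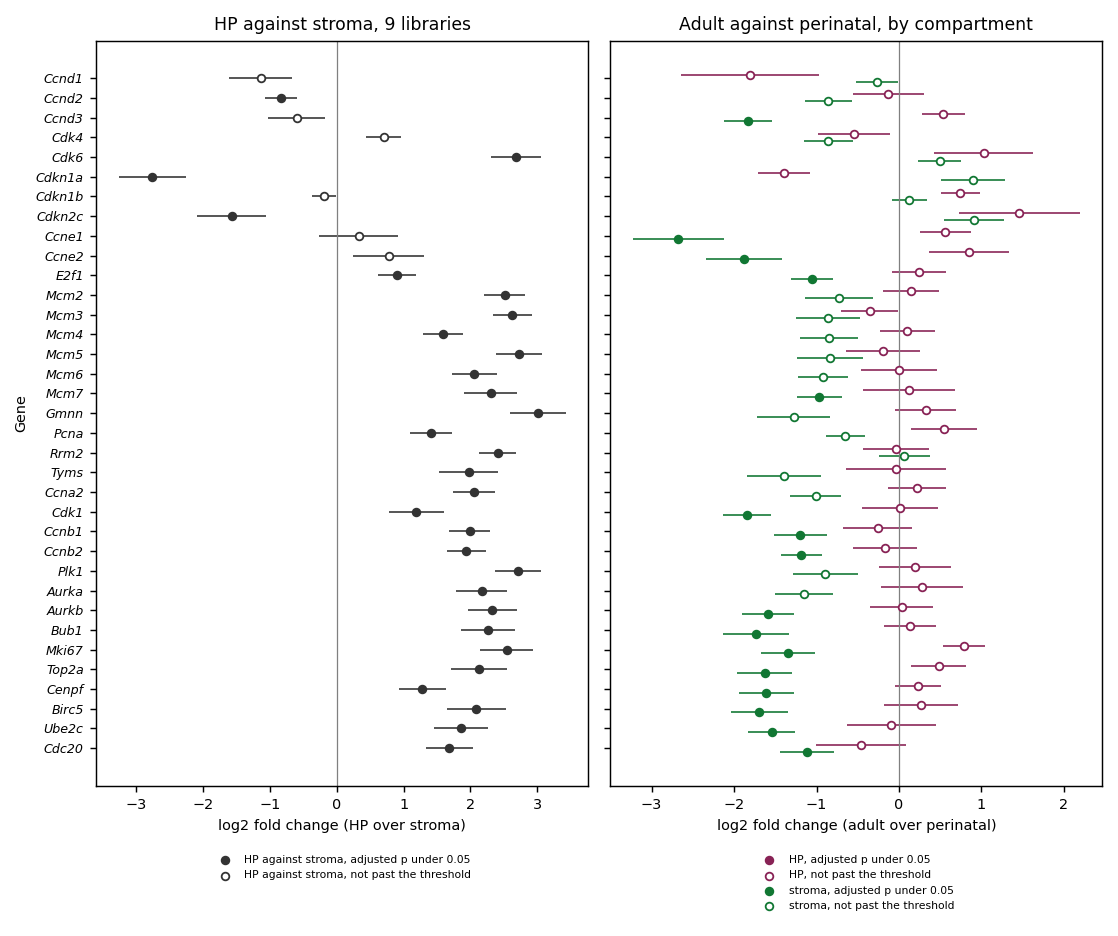
Points give log2 fold changes of the 35 genes with their standard errors from edgeR, for HP over stroma (left) and for adult over perinatal libraries within HPs and within stroma (right), and filled points passed an adjusted p of 0.05. Replication and mitotic genes lie between 1.19 and 3.01 on the left, and on the right 16 filled points lie below 0 in stroma and none is filled in HPs.

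Adult and perinatal libraries were compared next. Over both compartments together 125 of 18407 genes (0.679%, with 0.56% higher and 0.12% lower) passed the test and 0 of the 35 genes did, with 3 at an unadjusted p under 0.05 (DESeq2: 1302 genes and 0 of the 35). Within stroma, 16 of the 35 genes were called lower in the adult and 0 higher, where 8.77% of 18186 genes were called lower and 14.1% higher. The median log2 fold change was -1.06 over the 35 genes and -0.02 over all genes. All 6 genes of mitotic structure and exit, 5 of 8 mitotic kinases and cyclins, 3 of 3 genes of the G1/S transition, 1 of 7 licensing genes, 1 of 5 D cyclins and kinases and 0 of 3 DNA synthesis genes were among the 16. Adult stroma is a single library in this fit and is assumed to vary like the perinatal ones. Fewer of the 35 passed when E18.5 stroma was left out (Ccnd3, Ccne1, Cdk1, Cenpf and Ube2c), and more did without E16.5 or P0 stroma. The number of all genes called also ranged widely over these fits, so the change in the number of calls between fits is not particular to the 35.

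Ccne1, the cyclin that activates CDK2 at the start of S phase, had the largest stromal difference, at 44.3, 26.2 and 17.0 CPM in perinatal stroma and 5.0 CPM in the adult (log2 fold change -2.68, SE 0.55, edgeR adjusted p = 0.016). Muscle-led P clusters held 3022 of the 5184 Ccne1 UMIs of E16.5 stroma, and their cells numbered 945 of 8226 there and 122 of 6267 in the adult. Their own level was 198.7 CPM at E16.5 and 7.7 CPM in the adult (6 UMIs, 2.83 to 16.8 CPM), and fibroblast clusters ranged from 18.6 to 38.2 CPM at E16.5 and from 0.43 to 4.9 CPM in the adult. Ccne2, Cdk1 and Ccnd3 followed with -1.88, -1.84 and -1.83 (edgeR adjusted p = 0.027, 0.0064 and 0.0061), and Mki67 changed by -1.34 (SE 0.33, edgeR adjusted p = 0.027). Rrm2 did not pass (0.07, SE 0.31), and adult stroma held 21.8 CPM, as much as at E16.5 and E18.5. The 138 cells of the adult chondrocyte cluster C11 gave 1348 of the 1999 Rrm2 UMIs of adult stroma. Cdkn1a and Cdkn2c did not pass in stroma, with 0.89 and 0.91 on the log2 scale (edgeR adjusted p = 0.14 and 0.11). Both passed without E16.5 stroma (0.65 and 0.66, adjusted p = 0.040 and 0.044), and Cdkn1a also without P0 stroma (1.19, adjusted p = 0.035).

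Within HPs, 0 of 16114 genes passed in edgeR, with 1591 at an unadjusted p under 0.05, among them Cdkn1a (-1.40), Mki67 (0.79) and Cdkn1b (0.74). The adult change in HPs was not shown to differ from that in stroma. For this interaction, edgeR called 0 of 19323 genes (background 0), with 3800 genes and 14 of the 35 at an unadjusted p under 0.05. DESeq2 called 1806 genes, with 7 of the 35 higher in HPs relative to stroma (Ccnd3, Ccne1, Ccne2, Bub1, Mki67, Top2a and Cenpf) and Cdkn1a lower. On simulated counts in which few genes changed, the edgeR fit recovered 0% of 4-fold interactions. The absence of calls here therefore does not show that the changes were equal.

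Stages of HPs were compared with the E16.5 pair, which leaves 1 residual degree of freedom and assumes that the lone libraries vary like that pair. The tests of the 3 later stages called 1, 47 and 378 genes in turn (0.00621%, 0.292% and 2.35% of 16114, of which 0.168% at P0 and 1.35% in the adult were higher and 0.124% and 0.993% lower), and 0 of the 35 were among them, with 1 (Ccne2), 1 (Cdkn2c) and 2 (Cdkn1a and Ccne2) at an unadjusted p under 0.05. Without T cell clusters, nearly all of whose E16.5 cells were in library 2, the numbers rose to 882, 1356 and 2689. Cdk6 was then higher at each later stage than at E16.5, by 1.56 (E18.5), 1.77 (P0) and 2.32 (adult) on the log2 scale. Cdkn2c was then lower at E18.5 (-1.63) and P0 (-2.05), and in the adult Ccne2 was higher (1.42) and Ccnd1 (-1.77) and Cdkn1a (-1.67) were lower. Calls were about as frequent or more so over all genes, so these are not read as particular to the 35.

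Cell classes were then set side by side. The myeloid progenitor (MyP) clusters kept were almost wholly in S or G2/M at the 3 later stages, at which they were named, with 99.6%, 96.8% (95.5 to 97.8%) and 99.4% (98.3 to 99.9%). The erythroid and megakaryocyte clusters of those stages held 100%, 98.6% and 86.4%. Within the last of these the adult erythroid cluster EryP2 stood at 99.8% and the megakaryocyte cluster MegP2 at 71.2% (66.6 to 75.5%). B lineage clusters held 84.7%, 85.5%, 87.9% and 74.5% from E16.5 to the adult. Adult MyP4 and Bcell3 were among the shallow clusters left out, so the adult values of MyP and B lineage cells lack them. Adult B lineage cells were split into Pre/Pro-B1 (99.1%) and Bcell4 (100%) on the one hand and the shallower Pre/Pro-B2 (19.5%, 14.8 to 25.0%, and 45.7% after thinning) on the other. T cell clusters held 67.7%, 57.4% and 34.9% at the 3 later stages, and 95.3% of the 2141 T cells of library 2 at E16.5. The neutrophil clusters of E16.5 and the adult (97.3% and 95.6%) stood far from those of E18.5 and P0 (14.1% and 17.9%), which were small, with 71 and 28 cells. These neutrophil shares are deposited calls, which differ with depth.

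**Figure D4:**
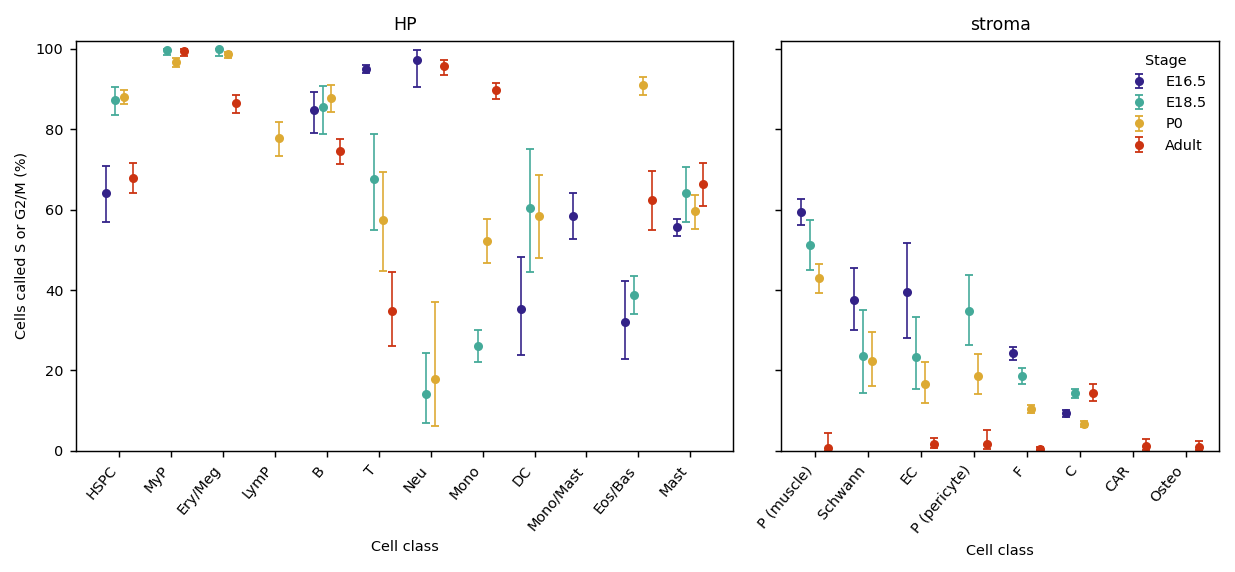
Points give the share of cells (%) called S or G2/M in each cell class and stage, with 95% Clopper-Pearson intervals, for HPs (left) and stroma (right), from the deposited phase. Deposited calls differ with depth, and the share of adult stroma was higher after thinning. The MyP and erythroid/megakaryocyte cells kept lie above 86% at each of the 3 later stages, at which they were named. The adult stromal classes lie below 2% apart from chondrocytes at 14.4%, whose share comes from cluster C11.

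HSPC clusters differed among themselves, and the first of them, E16.5 HSPC1, scored highest for T cell markers. E16.5 HSPC1 stood at 64.1% (57.0 to 70.8%), E18.5 HSPC2 at 87.4% (83.7 to 90.5%), P0 HSPC2 at 74.1% (70.7 to 77.4%) and adult HSPC5 at 67.9% (64.1 to 71.5%), while P0 HSPC3 and HSPC4 were at 100%. After thinning to 1000 UMIs the first 4 stood at 73.2%, 90.7%, 81.5% and 75.4%. Library 1 of E16.5 held 33 HSPC1 cells, of which 48.5% were in S or G2/M, and library 2 held 165 with 67.3%. Cdk6 was at 129.0, 201.6, 208.4 and 424.5 CPM in these 4 clusters, and Ccnd1 at 143.6, 150.1, 88.3 and 25.0 CPM. Mki67 was at 163.7, 203.4, 88.5 and 137.1 CPM in the same clusters, and at 248.6 CPM in P0 HSPC3. Cdkn1b was at 32.4, 29.5, 37.3 and 62.6 CPM, highest in the adult. At P0 the code was split into clusters that differed in phase. HSPC2 was the less cycling part, so its values do not stand for all P0 clusters of that code. With 1 library per stage after E16.5, these differences between stages had no replicate check.

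Mast cell clusters of E16.5 differed in cycling. Clusters are drawn from expression, so such gaps may describe how they were drawn. Mast1 (975 cells) held 18.1% (15.7 to 20.6%) of cells in S or G2/M, Mast2i (584 cells) 99.1% and Mast2ii (504 cells) 77.8%, whereas mast cells of libraries 1 and 2 stood at 57.5% and 55.3%. Mki67 was at 27.3, 270.7 and 150.3 CPM in the 3 clusters. Cdk1 and Rrm2 were lower in Mast2ii than in Mast2i, and Ccnb2 was higher. Cdk1 was at 166.7 CPM in Mast2i and 35.1 in Mast2ii, Rrm2 at 178.0 and 32.4, and Ccnb2 at 92.3 and 233.5. At E18.5 the basophil cluster and the mixed eosinophil and basophil cluster stood apart, with 5.11% in Bas1 and 97.5% in Eos/Bas2 (37.4% and 98.1% after thinning). In the E18.5 monocyte cluster Mono1iii 0 of 61 cells were in S or G2/M, which allows a share of up to 5.87% of deposited calls, but 18.0% were after thinning. Its Mki67 level was 10.6 CPM, from 4 UMIs (2.89 to 27.2 CPM).

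In perinatal stroma, muscle-led P clusters together held the highest shares of S or G2/M cells among the classes compared, with 59.4%, 51.1% and 42.9% in the order of stage, and 0.820% (0.0208 to 4.48%) in the adult. At E16.5 they were made up of P1i, whose top genes include Pax7 and Myf5 of muscle progenitors (74.5%), and P-2, led by genes of contracting fibres (19.6%). Ccne1 was at 262.3 CPM in P1i and 52.7 in P-2, and Cdkn1a at 38.7 and 323.2 CPM. Schwann cell clusters held 37.6%, 23.6% and 22.3% at the perinatal stages, and pericyte-led P clusters 34.7%, 18.7% and 1.76% at the 3 later stages. Endothelial clusters stood at 39.4%, 23.4% and 16.6% at the perinatal stages, and the adult clusters AECs and SECs at 0.750% and 3.61%. Fibroblast clusters ranged from 15.3 to 43.5%, 16.0 to 26.6% and 7.94 to 16.6% at the 3 perinatal stages in turn, and from 0 to 1.01% in the adult (6.88 to 16.1% after thinning). Chondrocyte clusters, which held the most cells, ranged from 5.76 to 15.4%, 5.90 to 28.6% and 3.86 to 10.8% at the perinatal stages in turn, with E18.5 C1i the highest of them.

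Adult stroma held 1 cycling cluster. Of the 138 cells of C11, 97.1% (92.7 to 99.2%) were in S or G2/M, against 2.26% in C9 and 2.62% in C10, and its leading genes were themselves cell cycle genes (Exo1, Pbk, Melk), so its levels describe how it was drawn. Mki67 was at 263.4 CPM in C11 and at 4.9 and 6.2 CPM in C9 and C10, and Rrm2 at 267.8 against 4.0 and 6.0 CPM. Cdkn2c reached 152.4 CPM in C11, the highest level among all 140 clusters, against 32.5 and 35.2 CPM. The cells of C11 were deep (median 37728 UMIs), and so were those of C10 (36462).

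Cdkn1a differed between stromal clusters of 1 stage as well as between stages. It ranged in fibroblast clusters from 6.7 to 67.2, 60.1 to 81.1 and 22.3 to 184.8 CPM at the perinatal stages in turn, and from 94.2 to 555.3 CPM in the adult. Endothelial clusters held 52.9, 28.7 and 106.9 CPM of Cdkn1a at the perinatal stages and 321.7 (AECs) and 561.8 (SECs) in the adult. Chondrocyte clusters overlapped between stages, with 28.7 to 255.9, 47.2 to 385.5 and 57.7 to 533.0 CPM at the perinatal stages in turn and 215.3 to 368.8 CPM in the adult. After thinning to 1000 UMIs, 7.91%, 11.6%, 15.2% and 22.6% of stromal cells held a Cdkn1a UMI from E16.5 to the adult, against 1.57 to 5.15% in the HP libraries. As a background, adult erythroid and megakaryocyte cells, among the lowest HP classes, stood at 0.225% (median 18234 UMIs before thinning, 11810 in adult stroma), and E16.5 Mono/Mast at 8.64%, with an interval that includes the share of E16.5 stroma. Without thinning, 70.4% of adult stromal cells and 2.13% of those adult erythroid and megakaryocyte cells held one. A Mki67 UMI was held by 11.0 to 24.3% of thinned cells in the HP libraries and by 0.914 to 3.92% in the stromal libraries. Unthinned, the stromal shares ran from 5.04 to 15.8% and the HP shares from 46.9 to 68.8%.

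D cyclins were used in different proportions by different classes. Shares of Ccnd1, Ccnd2 and Ccnd3 in their summed UMIs are compared between groups of cells, since UMI counts do not rank genes against each other. In the B lineage clusters kept, Ccnd3 held 92.9% (91.4 to 94.2%), 82.3%, 83.3% and 80.7% from E16.5 to the adult. In HSPC1, E18.5 HSPC2, P0 HSPC2 and HSPC5, in the order of stage, Ccnd2 held 38.7% (36.5 to 40.9%), 57.8%, 56.7% and 68.1%, and Ccnd1 31.2%, 26.1%, 19.96% and 6.84% (5.77 to 8.04%). T cell markers scored highest in HSPC1, so its shares may not describe HSPCs. Ccnd1 held most of the UMIs in Schwann cells (52.9%, 61.9% and 58.9%) and, at E16.5 and E18.5, in endothelial clusters (59.0% and 61.1%, then 47.4% at P0 and 38.3% and 33.7% in the adult AECs and SECs). It held 85.7% in E18.5 DC2, a cluster led by the osteoclast genes Ctsk, Acp5 and Mmp9. In muscle-led P clusters Ccnd3 held 72.1%, 74.9% and 77.7% at the perinatal stages, whereas Ccnd1 held 68.7% (64.1 to 73.1%) in the adult. Over whole libraries Ccnd1 held 23.1% of D cyclin UMIs in E16.5 HP library 1 and 6.82% in library 2.

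**Figure D5:**
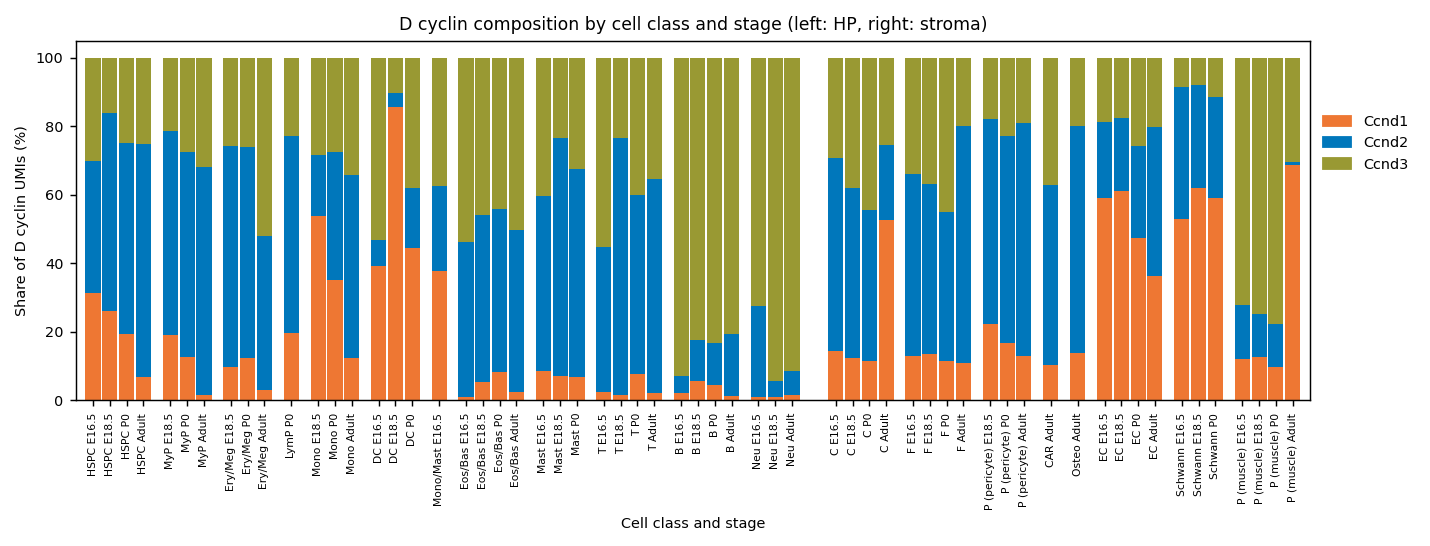
Stacked bars give the shares (%) of Ccnd1, Ccnd2 and Ccnd3 in their summed UMIs for each cell class and stage, for HPs and then stroma. Ccnd3 fills most of the B lineage and neutrophil bars. Ccnd2 takes 68.1% of the adult HSPC bar and 38.7% of the E16.5 bar of that code, whose cells scored highest for T cell markers. Ccnd1 is large in Schwann and perinatal endothelial bars and in the bar coded DC at E18.5, whose leading genes are osteoclast genes. It is also large in the E18.5 Mono bar (53.8%) and in the adult chondrocyte (52.5%) and muscle-led (68.7%) bars.

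Of the 35 genes, levels by phase were tested only for the 15 that were not used to score phase. UMIs were summed per library and deposited phase, with library as a term. S cells were higher than G1 cells for 10 and lower for 2 of the 15 (background 47.2% of 15975 genes, with 17.9% higher and 29.3% lower), and G2/M cells were higher for 9 and lower for 3 (background 44.7%, with 16% and 28.7%). Ccne1 and E2f1 were highest in S: Ccne1 rose by 3.56 in S and 1.94 in G2/M over G1 on the log2 scale, and E2f1 by 2.34 in S with 0.30 in G2/M (edgeR adjusted p = 0.32). Mcm3 and Mcm7 rose by 2.87 and 2.82 in S and by 1.17 and 1.86 in G2/M. The G2/M value of Mcm3 did not pass in stromal libraries alone (0.83, edgeR adjusted p = 0.080). Plk1, Ccnb1 and Ccna2 were highest in G2/M, at 6.70, 6.12 and 5.96 over G1 against 3.52, 2.80 and 4.05 in S. Plk1 was at 0.3 to 2.7 CPM in G1, 3.2 to 19.4 in S and 57.9 to 126.6 CPM in G2/M over the 9 libraries, so the phases did not overlap.

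D cyclins and CDK inhibitors did not move in one direction. Ccnd2 fell by 0.97 and Ccnd1 by 0.66 on the log2 scale in G2/M (edgeR adjusted p = 0.00017 and 0.010). Ccnd2 did not pass in HP libraries alone (-0.40, adjusted p = 0.070), nor Ccnd1 in stromal libraries alone (-0.29, adjusted p = 0.24), where it passed in S (1.03, adjusted p = 0.0031). Ccnd3 did not pass in either phase (0.23 in S and -0.05 in G2/M). Cdk4 rose by 1.03 in S and 0.65 in G2/M (0.34 in G2/M in stromal libraries alone, edgeR adjusted p = 0.13), and within cell classes it was higher in S than in G1 in 17 of 17 HP and 10 of 10 stromal class and stage groups. Cdk6 rose by 0.68 in S and 0.59 in G2/M (edgeR adjusted p = 0.019 and 0.042). Its G2/M call was lost with RLE factors, without the filter, without either E16.5 HP library and in stroma alone (adjusted p from 0.054 to 0.40), and its S call without library 2 (0.059) and in stroma alone (0.43). Cdkn1a fell by 0.74 in S and 0.97 in G2/M (edgeR adjusted p = 7.7e-05 and 3.2e-06) in sums over all cells of a library. Within cell classes its S level was below that of G1 in 9 of 17 HP groups, with a median log2 ratio of -0.03, and in 8 of 10 stromal groups (-0.35), and its G2/M level in 13 of 17 (-0.57) and 7 of 10 (-0.54). Cdkn1b fell by 0.94 in S (edgeR adjusted p = 0.00025; -0.43 and 0.090 in stromal libraries alone), and in adult HPs it was at 112.0 CPM in G1, 33.6 in S and 59.3 CPM in G2/M. Cdkn2c, although an inhibitor, rose by 1.74 in S and 3.34 in G2/M (SE 0.24, edgeR adjusted p = 1.0e-09), and in adult stroma it was at 29.8 CPM in G1 and 236.8 CPM in G2/M. All 9 quiescence-associated genes were called lower in S than in G1, where 29.3% of all genes were, and this was not checked within cell classes. G1 cells were shallower than S cells in 8 of 9 libraries, and the part of depth in these differences was not tested. Between HPs and stroma the change from G1 to S differed for 0 (higher in HPs) and 2 (lower) of the 15 genes, where 5.51% and 7.92% of 16450 genes did, and the change from G1 to G2/M for 1 and 4, where 5.76% and 10.3% did (edgeR).

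Across the 58 clusters of each compartment that held enough cells, Mki67 levels were most like those of Top2a in HPs (Spearman rho 0.86) and of Ccna2 and Top2a in stroma (0.97 each), as a description, since clusters share libraries. Other genes close to Mki67 were Cenpf (0.81) and Plk1 (0.79) in HPs and Aurka and Aurkb (0.96 each) in stroma. Ccnd1, Ccnd2 and Ccnd3 stood between -0.23 and 0.16 in HPs and at 0.32, 0.24 and 0.42 in stroma. Cdkn1a stood at -0.14 in HPs and -0.56 in stroma. Cdkn1b had its highest level in the adult cluster Pre/Pro-B2 (229.0 CPM), the B lineage cluster with the fewest cells in S or G2/M among those of the adult that were kept.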

How the data were processed

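Single cells had been captured by the authors with 10x Genomics 3' v3.1 chemistry, and 9 mRNA libraries (5 HP, 4 stroma) were used. The antibody counts were not used here. According to the submitters' notes and the study's methods, reads were processed with Cell Ranger 3.1.0 on mm10 and Seurat 3.1.5 in R 4.0. The authors deposited raw UMI counts per gene and cell after removing cells of low UMI count, high mitochondrial share or extreme gene number. They deposited the mitochondrial share of each cell as a fraction and its S and G2/M values as a score with the phase derived from them. Scores had been regressed out before clustering. No doublet caller was run here, and the upper tail of genes and UMIs had been removed by the authors.

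UMI counts were summed per library (or per library and phase) and tested with edgeR 4.0.16 in R 4.3.3 (TMM, default filter on low counts, quasi-likelihood F test, Benjamini-Hochberg adjustment over all genes, threshold 0.05). The 9 libraries are pools of mice, and nothing states that the E16.5 pair came from separate pools, so its spread may be technical. Fits were tested on simulated data: the HP against stroma fit recovered 17.5% of 4-fold and 0% of 2-fold changes, the adult fit 17.2% and 0%, the HP stage fit (adult against E16.5) 10.1% and 0%, and the G2/M against G1 fit 92.6% and 69.1%. Few genes were changed in these simulations, whereas 57.8% of genes were called between HPs and stroma. The recovered shares therefore do not measure the power of the fits on these data. Phases were scored again with scanpy 1.11.5 (43 S and 54 G2/M genes) after thinning to 1000 UMIs. Other steps used Python 3.11.15, NumPy 2.4.6, SciPy 1.17.1 and pandas 2.3.3. All genes on the list were named, with at most 4 examples for each further list. The list, the cell class markers and the tests were chosen with earlier results of these data known. Alternatives were RLE size factors, no filter, DESeq2 1.42.0, other thinning depths, per-cell means, and leaving out libraries, shared barcodes, T cell clusters or shallow clusters. Promoter sequences are those of RefSeq on GRCm38.p6.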

Additional observations from a re-analysis of the deposited data

Results flagged for a closer look

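For 7 gene and phase pairs outside the scoring lists, the change from G1 to S or G2/M differed between HPs and stroma in a direct test of the difference (edgeR quasi-likelihood interaction, adjusted p under 0.05 over 16450 genes, of which 13.4% passed for S and 16% for G2/M). This test was added after the data had been seen. In S, genes of the list outside the scoring lists passed about as often as all genes did. The S differences of Ccnd1 and Cdkn1b are therefore not read as particular to the cell cycle genes. Values are log2 fold changes in HPs minus those in stroma. Ccnb1, Ccna2 and Plk1 rose less from G1 to G2/M in HPs, by -2.15 (SE 0.47, edgeR adjusted p = 0.0053), -2.04 (SE 0.48, edgeR adjusted p = 0.0085) and -1.48 (SE 0.41, edgeR adjusted p = 0.022). In G1 cells, Ccnb1 was at 2.9 to 5.7 CPM in HP libraries and at 0.7 to 1.8 CPM in stromal ones. Ccnd2 fell less in G2/M in HPs (1.04, SE 0.25, edgeR adjusted p = 0.0094), and it was lower in G2/M than in G1 in 10 of 10 stromal and 11 of 17 HP class and stage groups.

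Cdkn1b differed in both phases, by -1.02 in G2/M (SE 0.25, edgeR adjusted p = 0.010) and -0.84 in S (SE 0.25, edgeR adjusted p = 0.035). In G2/M it was higher than in G1 in 10 of 10 stromal and 8 of 17 HP groups. Ccnd1 differed in S (-1.15, SE 0.29, edgeR adjusted p = 0.015), where it was higher than in G1 in 10 of 10 stromal and 13 of 17 HP groups. Without library 2 of E16.5 HPs the difference for Ccnd1 was -0.73 and no longer passed. Depth differed between phases and between compartments, and its part in these differences was not tested.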

How the results depend on the processing

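No paired analysis was possible because the mRNA groups share no replicate numbers, which only E16.5 HPs carry (HPs and stroma were matched by stage instead). The HP stage fits without either E16.5 library had no residual degrees of freedom, and an alternative without blood clusters in stroma was not run, since no stromal cluster is named for blood. Between compartments, 24 to 27 of the 35 genes were called higher and 1 to 4 lower, all lower calls but Cdkn1a being lost in some fits. The mean HP minus stroma difference in phase stayed between 44.3 and 61.0 points. For adult against perinatal, the 125 genes became 1302 (DESeq2), 0 (HPs alone), 4160 (stroma alone, with 16 of the 35 lower), 13 to 774 with 1 library left out (0 to 3 lower; 3 without adult HPs) and 1842 to 5667 within stroma with 1 left out (5 to 26 lower, 0 to 2 higher). Cdkn1a, negative over both compartments, was called higher at 0.65 and 1.19 within stroma without E16.5 and P0, and ran from -1.53 to 1.19 over all fits with 1 library left out. The interaction gave 1 gene with RLE, 0 to 1 with a library left out, and 1806 genes, 7 higher and 1 lower of the 35 with DESeq2. HP stages (E18.5, P0, adult) gave 35 and 78 (RLE, E18.5 and P0), 485, 713 and 1515 (no filter), 346, 554 and 1144 (DESeq2), 66 and 141 (without the shallower cells of shared barcodes, E18.5 and P0) and 882, 1356 and 2689 genes (no T cells, with 1, 1 and 2 of the 35 higher and 1, 1 and 2 lower). Phase tests in stroma alone gave 2956 (S, 1 of the 15 lower) and 4083 genes (G2/M), and Cdkn1b turned from -0.10 to 0.51 in G2/M. Phase by compartment gave 3590 (S, DESeq2), 2879 to 3886 (S) and 3026 to 4169 genes (G2/M) without either E16.5 library, with 1 to 2 of the 15 lower in S and 2 to 3 higher in G2/M. With shares averaged over cells, HP minus stroma turned from -1.33 to 0.87 points for Ccnd2 and from 4.59 to -0.30 for Ccnd3. Causes were not tested.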
